A study of Mus musculus with 6 samples.

Results

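Cpe, Fat3, Car3 and Slc26a7 are 4 of the 19938 genes with a probe set of their own on the arrays. They were selected on their measured intensities, because their means in the 2 cell populations of the study lay about 3-fold or more apart, Cpe, Fat3 and Car3 being higher and Slc26a7 lower in targeted cells. The choice used the contrast between the populations on all 6 arrays, so the levels and differences of the 4 genes are given as a description, with no test.

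The populations were CAR cells targeted by Dmp1-Cre and CAR cells not targeted by it, with 3 arrays each. CAR (Cxcl12-abundant reticular) cells are perivascular stromal cells of the bone marrow that make the chemokine Cxcl12 and support blood cell formation. Both populations were sorted by flow cytometry from the marrow of the femur and tibia of C57BL/6 mice aged 7 weeks. All of these mice carried Dmp1-Cre and 1 Cxcl12-gfp allele. Dmp1-Cre is a transgene that makes Cre recombinase under control of Dmp1 regulatory DNA, Dmp1 being a bone matrix gene that osteocytes and their precursors express. Targeting therefore reports present or past activity of that sequence in a cell or its ancestors. Per the design text there were 3 mice and each sample came from a single mouse, while the labels do not say whether a replicate number stands for the same mouse in both populations. How targeted cells were told apart in the sort is not stated in the labels. The comparison asked how the targeted CAR cells differ from the others.

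The 4 genes have unrelated products. Cpe encodes carboxypeptidase E, an enzyme of secretory granules that trims basic residues from the ends of peptides after prohormone convertases have cut the precursor, and it is best known from endocrine cells and neurons. Fat3 encodes a giant atypical cadherin, related to the Drosophila tumour suppressor fat, that organises cell contacts and cell polarity. Car3 encodes a cytosolic carbonic anhydrase of low catalytic activity that is abundant in adipocytes and slow skeletal muscle. Slc26a7 encodes an anion transporter that carries chloride and bicarbonate, known from kidney, stomach and thyroid epithelia.

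The arrays' median intensities ran from 79.4 to 86.7 for the targeted samples, against 80.6 to 87.5 for the non-targeted samples. Their small number and the spread between arrays of a group both limit precision. The values below are log2 intensities, which can be compared between arrays for a gene but not between genes. The exception is the sums over marker lists, which add linear intensities. Such a sum is compared between arrays only, and the brightest genes of its list weigh most in it. All 10 markers of CAR cells examined, among them Cxcl12, Lepr, Foxc1, Ebf3 and Kitl, were well measured, from 9.52 to 13.34 on the targeted arrays and from 9.78 to 13.29 on the non-targeted arrays. All 10 were lower in the mean of targeted cells, by a median log2 difference of -0.29, beside -0.005 over all genes tested. None passed limma's adjusted threshold, and 2 had an unadjusted p under 0.05, Lepr (-0.49) and Grem1 (-0.50). Within replicates 2 and 3 all 10 were lower. Within replicate 1 only Lepr, Pdgfra and Grem1 were lower, by -0.26, -0.02 and -0.04, and the rest were level or higher, up to 0.71 for Pdgfrb. Their part in the differences of the 4 genes was not tested. Dmp1 itself averaged 10.40 ± 0.77 in the targeted population, against 7.12 ± 0.34 in the non-targeted population (SD, n = 3 each). The other osteocyte markers examined did not share this difference. Sost, Fgf23 and Pdpn differed by 0.04, 0.09 and 0.14 and Phex by -0.22, and Mepe was dim. Targeted replicate 1 stood apart in marker genes of other cells, and the values of the 4 genes are therefore given with and without it.

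Cpe, the peptide-trimming enzyme gene, was at 9.82, 9.03 and 8.60 in targeted replicates 1, 2 and 3 and at 7.82, 7.14 and 7.31 in the non-targeted replicates. All targeted arrays lay above all non-targeted arrays. The mean was 9.15 ± 0.62 in the targeted population, against 7.42 ± 0.35 in the non-targeted population (SD, n = 3 each), a log2 difference of 1.73, or 3.31-fold. Within a replicate number Cpe differed by 2.00, 1.89 and 1.29. Its targeted values were the least spread of the 4 genes. Without targeted replicate 1 it was 2.62-fold higher, and on replicates 2 and 3 alone 3.01-fold higher.

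Fat3, the cadherin gene, was at 10.56, 7.83 and 8.52 on the targeted arrays and at 7.49, 6.15 and 6.97 on the non-targeted arrays in its brightest probe set. The groups did not overlap, but the highest non-targeted array was only slightly below the lowest targeted one. The mean was 8.97 ± 1.42 in the targeted population, against 6.87 ± 0.67 in the non-targeted population (SD, n = 3 each), a log2 difference of 2.10, or 4.29-fold. The differences within a replicate number were 3.07, 1.67 and 1.56. The size of the Fat3 difference rested on targeted replicate 1: without that array it was 2.47-fold, and on replicates 2 and 3 alone 3.06-fold.

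Car3, the carbonic anhydrase gene, was at 11.04, 8.94 and 8.97 on the targeted arrays and at 8.64, 7.33 and 7.55 on the non-targeted arrays. Targeted replicate 1 was far above the other arrays, while non-targeted replicate 1 came close to targeted replicates 2 and 3. The mean was 9.65 ± 1.21 in the targeted population, against 7.84 ± 0.70 in the non-targeted population (SD, n = 3 each), a log2 difference of 1.81, or 3.50-fold. Within a replicate number Car3 differed by 2.40, 1.60 and 1.42. Without targeted replicate 1 the fold was 2.16, and on replicates 2 and 3 alone 2.85.

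Slc26a7, the anion transporter gene, was at 7.16, 9.07 and 9.04 on the targeted arrays and at 9.03, 10.70 and 10.36 on the non-targeted arrays. It was the only one of the 4 whose groups overlapped, because non-targeted replicate 1 lay just below targeted replicates 2 and 3. The mean was 8.42 ± 1.10 in the targeted population, against 10.03 ± 0.89 in the non-targeted population (SD, n = 3 each), a log2 difference of -1.61, or 3.04-fold lower. Within a replicate number the differences were -1.87, -1.63 and -1.32, so the overlap was between arrays of different numbers. Without targeted replicate 1 Slc26a7 was 1.96-fold lower, and on replicates 2 and 3 alone 2.78-fold lower. Since these are bulk samples, fewer cells that make a transcript and less of it in each cell cannot be told apart, for Slc26a7 or for the others.

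**Figure D1:**
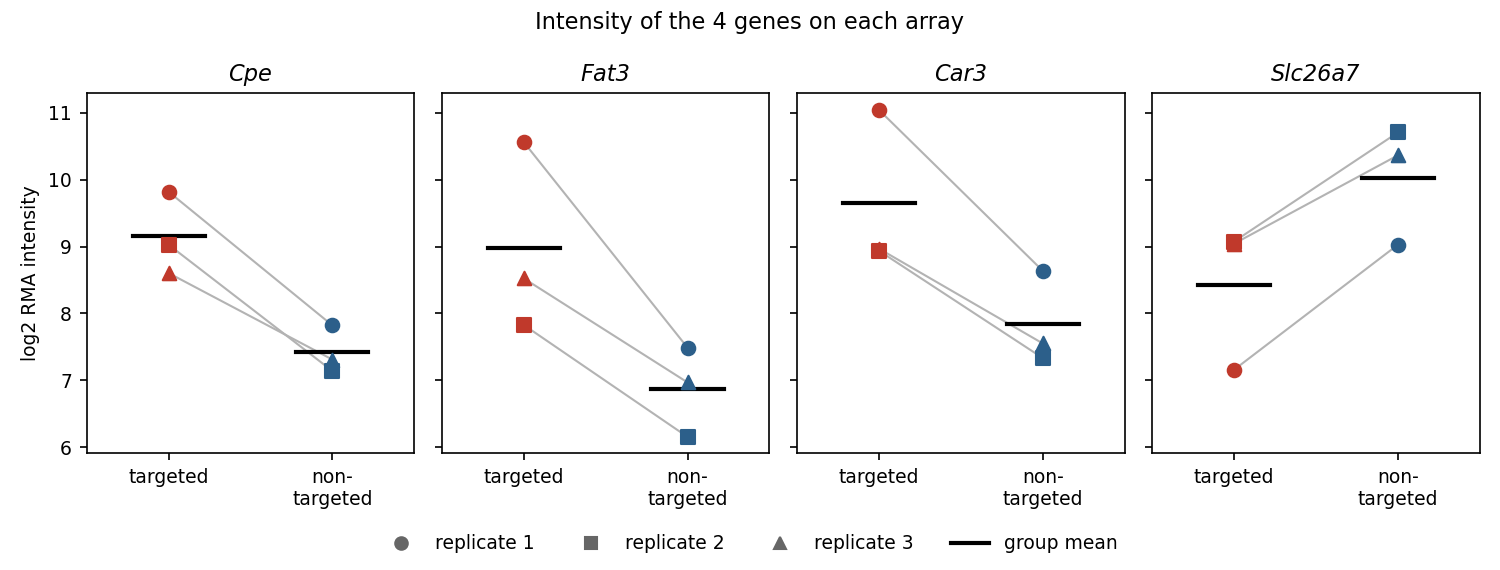
Log2 RMA intensity of each gene on the 6 arrays, targeted on the left and non-targeted on the right, with marker shapes for replicate numbers, grey lines joining equal numbers and black bars for group means. All 12 grey lines run the way of their gene's group means, and the circles of replicate 1 are the highest of their group for Cpe, Fat3 and Car3 and the lowest for Slc26a7.

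The replicate 1 arrays of both populations lay at the same end for all 4 genes. Targeted replicate 1 had the highest Cpe, Fat3 and Car3 and the lowest Slc26a7 of its group, and non-targeted replicate 1 had the highest Cpe, Fat3 and Car3 and the lowest Slc26a7 of its own. Car3 and Slc26a7 were nearly mirror images over the 6 arrays (Pearson r = -0.992). Fat3 followed Car3 closely (r = 0.978), and Cpe followed it less closely (r = 0.946). These coefficients describe 6 arrays that fall into 2 groups, of genes chosen for the difference between those groups.

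The threshold of 3-fold was passed upward by 9 of the 13292 genes tested (0.0677%) and downward by 7 (0.0527%). Fat3 ranked second after Dmp1 among the genes higher in targeted cells, Car3 ranked 5 and Cpe ranked 6. Slc26a7 ranked 7 among the genes lower in targeted cells and was the last inside the threshold. Just inside it on the upper side were Lgi1, at 3.26-fold, and Mgll, a monoacylglycerol lipase gene, at 3.01-fold. Just outside were the protease gene Adamts9, at 2.90-fold, and Xlr, at 2.70-fold. On the lower side Prss34, a mast cell and basophil protease gene at 3.05-fold, stood next to Slc26a7, and Syne2 at 2.97-fold and Prkaa2 at 2.95-fold were just outside. Non-overlapping arrays were common: 441 of the 13292 genes (3.32%) had every targeted array above every non-targeted one, as Cpe, Fat3 and Car3 did, and 765 (5.76%) had them all below.

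Fat3 was read by 15 probe sets that name no other gene, whereas Cpe, Car3 and Slc26a7 had 1 each. All 15 were higher in the mean of targeted cells, by 0.43 to 2.63 with a median of 1.17 (2.25-fold). Of these, 6 reached 3-fold, 6 had non-overlapping groups, and 3 had a mean at or below the level treated as dim. The brightest probe set, 10591135, which gave the values above, had the third largest difference. The mean over all 15 was 2.59-fold higher in targeted cells.

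The Fat3 probe sets did not tell the same story on each targeted array. Within replicate 1 the targeted array was higher for 15 of 15 probe sets, with a median difference of 2.73, and 12 differed at least 2-fold. Within replicate 2 it was also higher for 15 of 15, but the median difference was 0.56 and 3 reached 2-fold. Within replicate 3 it was higher for 12 of 15, with a median of 0.52 and 7 at 2-fold. Only 2 probe sets reached 2-fold within every number, 4 did so within replicates 1 and 3 only and 5 within replicate 1 only.

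Probe set 10591123 was at 8.12, 5.11 and 9.05 on the targeted arrays and at 6.16, 4.74 and 4.88 on the non-targeted arrays, so targeted replicate 2 lay within the non-targeted range. Probe set 10591118 was at 9.87, 5.05 and 5.35 on the targeted arrays and at 7.03, 4.75 and 4.98 on the non-targeted arrays, so that only the replicate 1 arrays were high. Probe set 10591112, the dimmest, went the other way in replicate 3, at 3.50 in the targeted population, against 5.91 in the non-targeted population. A steadier probe set was 10591090, at 7.96, 7.56 and 7.95 on the targeted arrays and at 7.11, 6.69 and 6.82 on the non-targeted arrays, a log2 difference of 0.95.

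**Figure D2:**
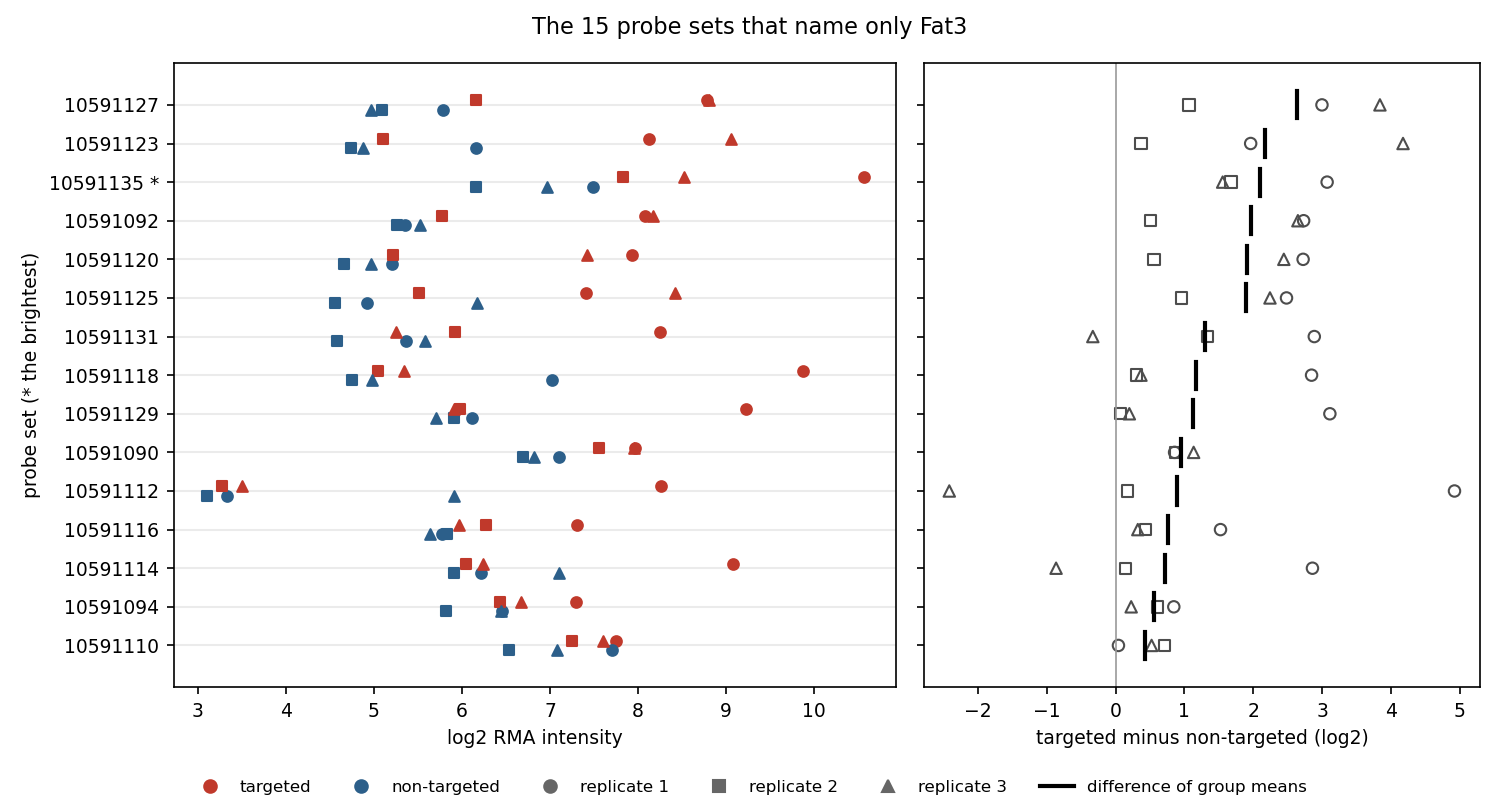
The 15 probe sets naming only Fat3, ordered by the difference of group means. The left panel gives log2 RMA intensity on each array (red targeted, blue non-targeted, shapes for replicate numbers) and the right panel the log2 difference within each number, with black bars for the difference of group means. All black bars lie above 0, from 0.43 to 2.63, while the triangles of replicate 3 spread from -2.42 to 4.18.

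Other marker genes moved with the 4 genes on some of these arrays. The 5 of 8 osteoblast markers measured summed to intensities of 9803 to 16066 on the targeted arrays, against 8786 to 11081 on the non-targeted arrays. None of the 5 passed limma's adjusted threshold. All 5 means were higher in targeted cells, by 0.05 for Ibsp to 1.11 for Alpl, although within replicate 2 Ibsp and Col1a2 were lower, by -0.39 and -0.16. Alpl was at 11.76, 10.63 and 11.06 on the targeted arrays and at 10.42, 9.95 and 9.74 on the non-targeted arrays. The 7 fibroblast and periosteum markers summed to 4631 to 13413 on the targeted arrays, against 4771 to 5463 on the non-targeted arrays, the highest being targeted replicate 1. On that array Dcn, the brightest of the list, was at 13.04, higher by 1.04 than on non-targeted replicate 1, and Postn was at 10.44, higher by 3.18. Lum and Fn1 were also higher there than on non-targeted replicate 1, whereas Aspn was at 6.48, against 7.60, and Dpt and Pi16 differed by -0.26 and -0.32. None of the 6 tested passed limma's adjusted threshold. Their part in the differences of the 4 genes was not tested.

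Neutrophil markers were lowest in sum on targeted replicate 1. All 7 were measured, and they summed to 823, 7636 and 10397 on the targeted arrays and to 8321, 9139 and 12416 on the non-targeted arrays. S100a8 was at 6.97 in targeted replicate 1 and at 11.43 in non-targeted replicate 1. Within replicates 2 and 3 S100a8 differed by 0.03 and -0.13 and S100a9 by 0.06 and -0.11, whereas Ngp differed by -1.84 and -0.53, Ltf by -1.32 and -0.62 and Camp by -0.47 and -0.66. Mpo and the dim Elane were higher within replicate 2, by 0.42 and 0.62. Their means were also higher in targeted cells, by 0.09 and 0.17. On targeted replicate 2 Ngp, at 8.89, and Ltf, at 6.48, also lay below every non-targeted array. None of the 6 tested passed limma's adjusted threshold. Their part in the differences of the 4 genes was not tested.

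Markers of the cells that Car3 and Cpe are best known from had summed levels that overlapped between the populations. The 10 skeletal muscle markers summed to 899 to 1136 on the targeted arrays, against 904 to 1045 on the non-targeted arrays. Of the 8 tested, the differences ran from 0.01 to 0.13, and the myosin genes Myh1 and Myh4 were dim. This list covers skeletal muscle at large and was not limited to the slow muscle that Car3 is known from. Of the mature adipocyte markers, 6 of 8 were measured, summing to 489 to 593 on the targeted arrays, against 529 to 788 on the non-targeted arrays. Among them Plin1, which coats lipid droplets, was at 6.46 ± 0.10 in the targeted population, against 6.59 ± 0.28 in the non-targeted population, and Fabp4, a fatty acid binding protein gene, was at 7.03 ± 0.70 in the targeted population, against 7.72 ± 0.52 in the non-targeted population (SD, n = 3 each). The 5 of 6 neuroendocrine markers measured summed to 399 to 479 on the targeted arrays, against 389 to 450 on the non-targeted arrays. Endothelial markers (5 of 5) summed to 222 to 282 on the targeted arrays, against 234 to 274 on the non-targeted arrays, and Schwann cell markers (3 of 5) to 617 to 869 on the targeted arrays, against 548 to 701 on the non-targeted arrays. RMA lists no gene at 0, so a dim value stands for little or no signal. In log2, the muscle markers ran from 4.8 to 7.7 on the targeted arrays and from 4.6 to 7.6 on the non-targeted arrays. In the same order, neuroendocrine markers ran from 5.2 to 7.2 and from 5.1 to 7.1, and adipocyte markers from 5.5 to 7.6 and from 5.5 to 8.3. Means at or below 6.00 were treated as dim. By that cut 2 of the 10 muscle, 1 of the 6 adipocyte and 2 of the 5 neuroendocrine markers measured were dim. The part of such cells in the differences of Car3 and Cpe was not tested.

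**Figure D3:**
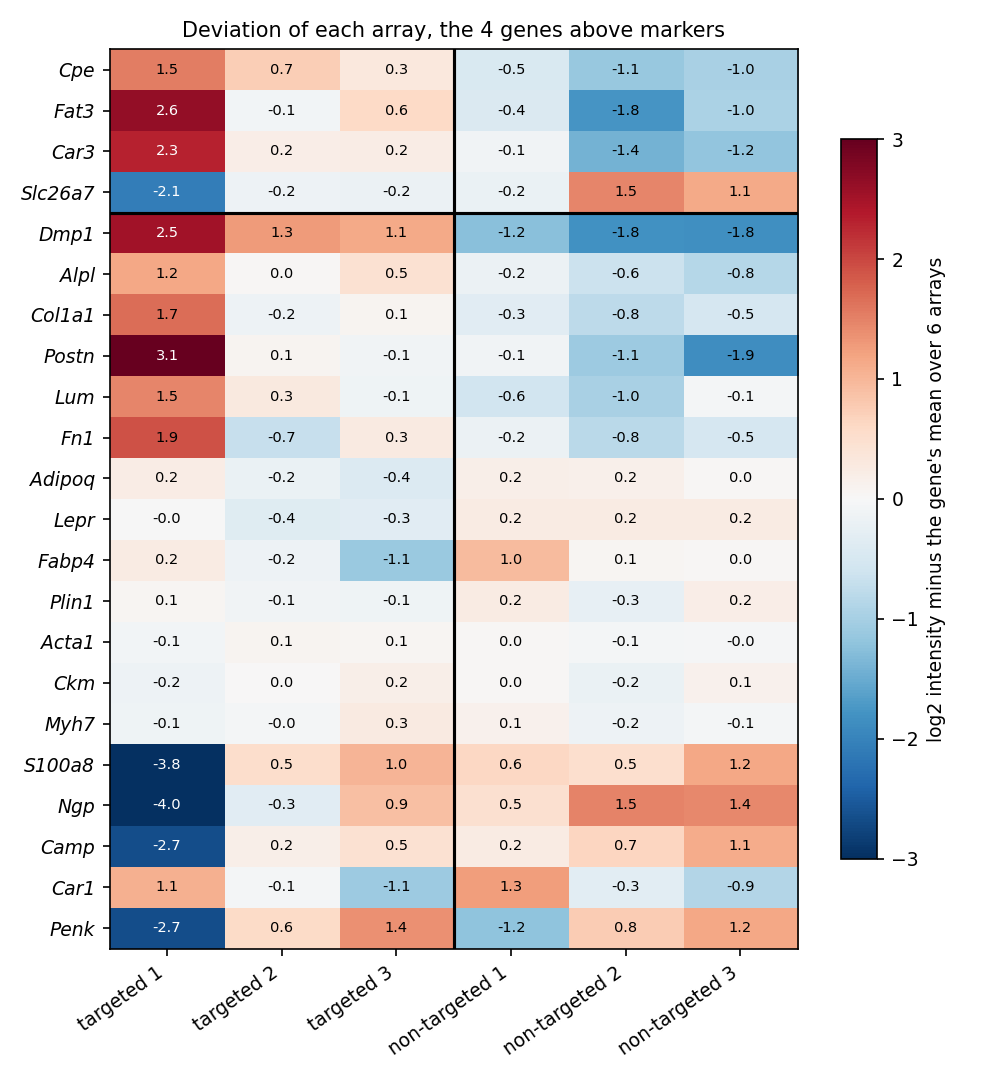
Log2 intensity of each gene on each array minus the gene's mean over the 6 arrays, with the 3 targeted arrays left of the 3 non-targeted ones and the 4 genes above a line, followed by markers. The colour scale ends at -3 and 3. The markers plotted were picked from longer lists. Targeted replicate 1 carries the strongest shift of all 4 genes. Alpl, Col1a1, Postn, Lum and Fn1 are high there and S100a8, Ngp and Camp are low there, while the muscle genes Acta1, Ckm and Myh7 stay within 0.3 of their means. The fibroblast markers Aspn, Dpt and Pi16, not plotted, were lower there than on non-targeted replicate 1, by -1.12, -0.26 and -0.32. Of the neutrophil markers not plotted, S100a9 and Ltf differed in the same comparison by -3.29 and -1.55, but Mpo and the dim Elane by only -0.14 and -0.15.

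The families and pathways of the 4 genes were examined next, with the 4 genes left out of every count. Of 145 such genes in 8 lists, 96 passed the filter on dim genes and were tested with all others by limma. None had an adjusted p under 0.05, as for all 13292 genes tested (0%), and 4 of the 96 had an unadjusted p under 0.05 (4.17%), close to the 4.77% of all genes tested. The median log2 difference over all genes tested was -0.005, with 6499 higher and 6793 lower in targeted cells.

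Carboxypeptidases related to Cpe differed by small amounts in both directions. Of 7, 5 were tested, 3 being higher and 2 lower in targeted cells, with a median of 0.01 and a range of -0.10 to 0.28. Cpd, a carboxypeptidase of the Golgi with overlapping substrates, was at 8.10 ± 0.57 in the targeted population, against 8.04 ± 0.10 in the non-targeted population (SD, n = 3 each; log2 difference 0.06, 95% interval -0.58 to 0.70). Cpz differed by 0.28 (95% interval -0.12 to 0.68), and Cpm was dim.

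The enzymes that act with carboxypeptidase E on peptide precursors included the 2 genes with the smallest unadjusted p among the 96. Of 15 tested genes of prohormone processing, 8 were higher and 7 lower, with a median of 0.001. Qpctl, a Golgi enzyme that forms pyroglutamate at peptide ends, was at 6.53, 6.77 and 5.93 on the targeted arrays and at 7.53, 7.48 and 7.29 on the non-targeted arrays. Its log2 difference was -1.02 (SE 0.23, limma adjusted p = 0.722). Pam, which amidates peptides after carboxypeptidase E has trimmed them, was at 10.11, 9.79 and 9.96 on the targeted arrays and at 10.34, 10.65 and 10.47 on the non-targeted arrays (log2 difference -0.53, SE 0.16, limma adjusted p = 0.899). Neither passed, although for both genes the groups did not overlap. The convertase genes Furin, Pcsk5, Pcsk6 and Pcsk7, which cut precursors, differed by 0.08, -0.06, 0.0006 and 0.12.

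Precursors that carboxypeptidase E could act on showed no common direction. Of 16 tested peptide and hormone precursor genes, 9 were higher and 7 lower, with a median of 0.03. Igf1, the insulin-like growth factor gene, was at 10.33 ± 0.34 in the targeted population, against 10.67 ± 0.08 in the non-targeted population (SD, n = 3 each). Penk, the enkephalin precursor gene, was picked out after its values were seen. It was at 5.36, 8.60 and 9.39 on the targeted arrays and at 6.80, 8.78 and 9.18 on the non-targeted arrays, low on the replicate 1 array of each population and with overlapping groups.

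Fat1, the relative of Fat3 with the largest difference in its list, was at 10.40, 9.60 and 10.15 on the targeted arrays and at 9.26, 9.54 and 9.58 on the non-targeted arrays. All targeted arrays lay above, targeted replicate 2 only just, and the log2 difference of 0.58 did not pass (SE 0.23, limma adjusted p = 0.992). Fat4, which binds Dachsous cadherins on neighbouring cells, was at 9.92 ± 0.29 in the targeted population, against 9.83 ± 0.25 in the non-targeted population (SD, n = 3 each; log2 difference 0.09, 95% interval -0.39 to 0.56). Of the 17 tested cadherin and planar polarity genes beside Fat3, 11 were higher and 6 lower, with a median of 0.04. Those other than Fat1 differed by at most 0.19 in either direction.

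In the Hippo pathway, which fat signals to in Drosophila, 14 of 20 tested genes were lower and 6 higher in targeted cells, with a median of -0.18. No gene passed. Mob1b, an activator of the Lats kinases, was at 7.13 ± 0.08 in the targeted population, against 7.61 ± 0.14 in the non-targeted population (SD, n = 3 each; log2 difference -0.47, limma adjusted p = 0.931). Mob1a differed by -0.38, Amotl2 by -0.35 and Ccn1, a target gene of the pathway, by -0.33.

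Of the 15 carbonic anhydrase genes other than Car3, 8 were tested, 1 being higher and 7 lower in targeted cells, with a median of -0.10 and a range of -0.30 to 0.14. Car2, the enzyme of osteoclasts and red cells, was at 6.26 ± 0.14 in the targeted population, against 6.55 ± 0.39 in the non-targeted population (SD, n = 3 each; 95% interval of the difference -0.80 to 0.21). Car1, the abundant form of red cells, was picked out after its values were seen. It was at 10.90, 9.76 and 8.74 on the targeted arrays and at 11.08, 9.51 and 8.95 on the non-targeted arrays. Its arrays of equal number differed by -0.18, 0.25 and -0.20, and arrays of different numbers lay further apart.

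Among the SLC26 transporters, 4 of the 10 others were tested, and 6 were dim. Slc26a2, the sulfate transporter needed for cartilage matrix, was at 7.51 ± 0.10 in the targeted population, against 7.31 ± 0.15 in the non-targeted population (SD, n = 3 each; log2 difference 0.20, 95% interval -0.15 to 0.56). The other 3, Slc26a6, Slc26a10 and Slc26a11, differed by 0.02, -0.08 and -0.12. Of 12 tested bicarbonate transporter and chloride channel genes, 4 were higher and 8 lower, with a median of -0.09. Their largest difference was -0.31, for Ano6, a phospholipid scramblase and ion channel.

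**Figure D4:**
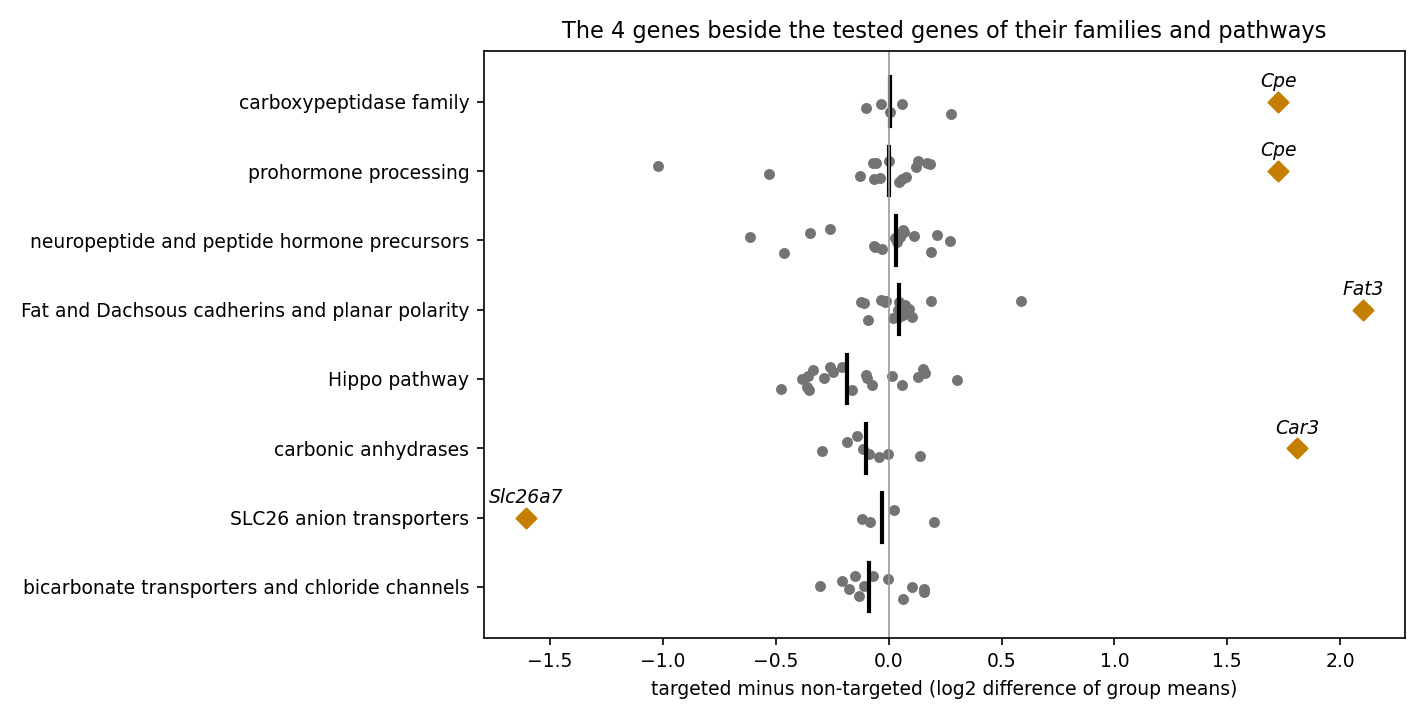
Log2 difference of group means, targeted minus non-targeted, for the tested genes of 8 families and pathways (grey points), with black bars for list medians and diamonds for the 4 genes. Apart from the diamonds, 94 of 96 genes lie from -0.61 to 0.30, beside Qpctl at -1.02 and Fat1 at 0.58.

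Genes beside the 4 on the chromosome were set next to them, a comparison added after the values were seen. Of the 3 protein-coding genes on each side in the RefSeq gene order, 24 in all, 16 were tested. Of these, 5 were higher and 11 lower in targeted cells, beside 6499 higher and 6793 lower of all genes tested. None passed limma's threshold, and 2 of the 16 had an unadjusted p under 0.05, beside 634 of the 13292 genes tested (4.77%). So few neighbours do not show whether place on the chromosome matters, which was not tested. Car3 lies between Car1 and Car2, whose differences were -0.04 and -0.30 beside its own 1.81. The tested neighbours of Cpe, which were Msmo1, Klhl2 and Tmem192, differed by -0.41, 0.10 and 0.02. Beside Fat3, Naalad2 was lower in targeted cells by a log2 difference of -0.96 (limma adjusted p = 0.931).

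Of the 5 tested neighbours of Slc26a7, 4 were lower in targeted cells. Triqk was at 6.67 ± 0.33 in the targeted population, against 7.67 ± 0.26 in the non-targeted population (SD, n = 3 each; limma adjusted p = 0.701), with non-overlapping arrays. Runx1t1, a transcriptional corepressor gene next to Slc26a7, was at 7.26 ± 0.81 in the targeted population, against 8.07 ± 0.36 in the non-targeted population (log2 difference -0.81). Otud6b differed by -0.42 and Pip4p2 by -0.29, whereas Cibar1 differed by 0.48. None of these passed.

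The genes most like each of the 4 over the 6 arrays were ranked by Pearson's r among 2731 named protein-coding genes with a range of at least 1. Cpe was most like Dmp1 (r = 0.983), followed by Asic3, an acid-sensing channel gene (0.977), Vcan, the proteoglycan versican (0.968), and Ercc6 (0.964). Dmp1 was at 11.28, 10.03 and 9.89 on the targeted arrays and at 7.51, 6.93 and 6.91 on the non-targeted arrays, in the same order as Cpe in targeted cells. In non-targeted cells the lowest array was replicate 3 for Dmp1, by a small margin, and replicate 2 for Cpe. Fat3 was most like Pdgfc, a growth factor gene (0.983), Dapk2 (0.983), the histone gene H2bc3 (0.980) and Col1a1, a chain of type I collagen (0.978).

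Car3 was most like H2bc3 (r = 0.994), Cyfip2 (0.984), Fat3 (0.978) and Dctpp1 (0.977). Slc26a7 was most like Cyth3 (0.987), Podn, a small leucine-rich proteoglycan gene (0.982), Usp54 (0.977) and Shisa3 (0.977). Podn was at 7.57, 8.50 and 8.37 on the targeted arrays and at 8.63, 9.13 and 9.19 on the non-targeted arrays. All of these coefficients are over 6 arrays in 2 groups and are given with no test.

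**Figure D5:**
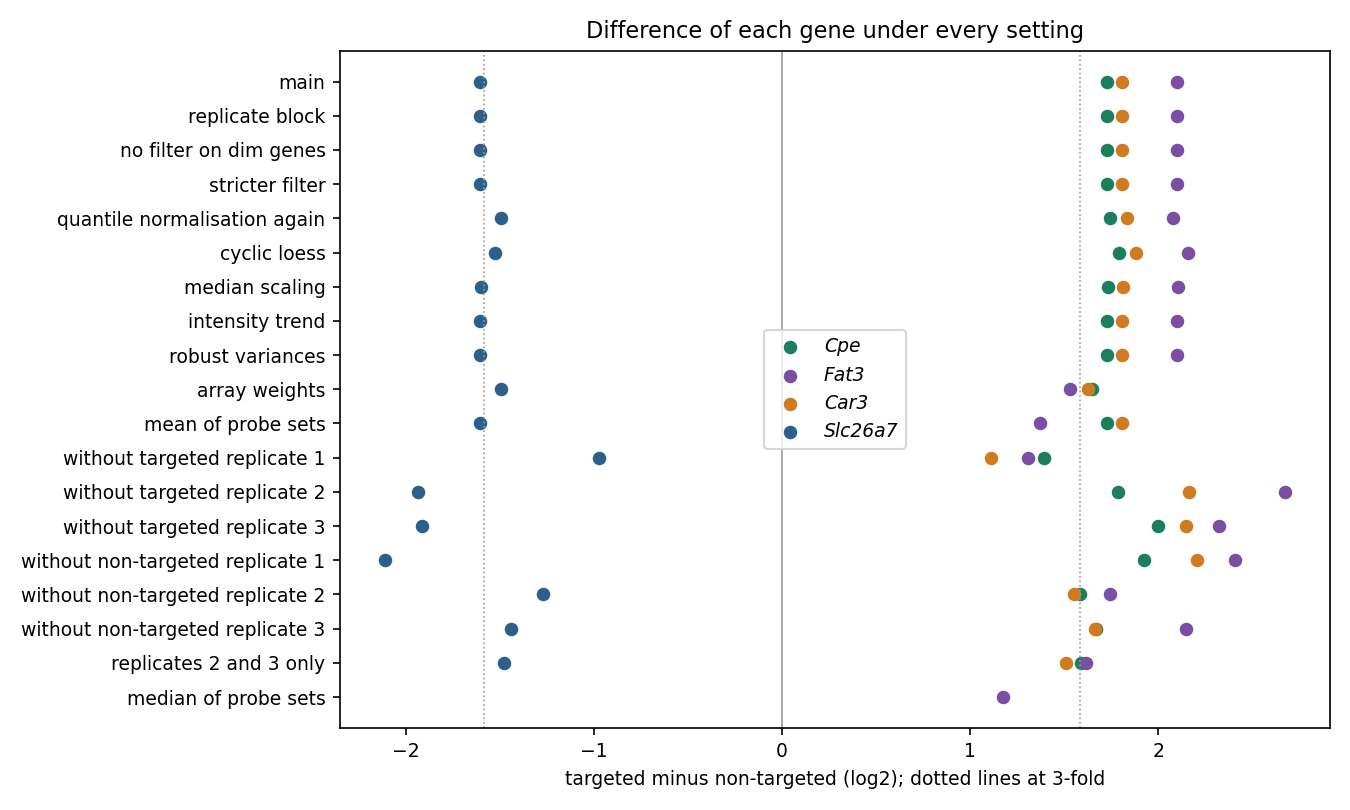
Log2 difference, targeted minus non-targeted, of the 4 genes under each setting of scaling, filtering, weighting, probe set summary and array left out, with dotted lines at 3-fold. Every setting keeps the direction of each gene, which is the direction the genes were chosen for, and some settings cannot move a difference of group means. The points come nearest to 0 without targeted replicate 1 for Cpe, Car3 and Slc26a7 and with the median of the 15 probe sets for Fat3.

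Among the settings tried, the direction of all 4 differences held in each. The genes were chosen for these differences on the same arrays, so a kept direction adds no support. By construction, the replicate block, the other filters and the other variance models leave a difference of group means unchanged. The mean over probe sets does so too for the genes with 1 probe set. Relative to the 3-fold line the genes were less steady. Without targeted replicate 1 all 4 were under it, and without non-targeted replicate 2 Cpe, Car3 and Slc26a7 were, at 2.998-fold, 2.94-fold and 2.41-fold. Slc26a7 was also under it without non-targeted replicate 3 (2.71-fold), with array weights (2.81-fold), with cyclic loess (2.88-fold) and with quantile normalisation repeated (2.82-fold). Fat3 was under it with array weights (2.89-fold), with the mean of its probe sets (2.59-fold) and with their median (2.25-fold). On replicates 2 and 3 alone Car3 and Slc26a7 were under it, as given above.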

How the data were processed

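The deposited values were intensities, 1 per probe set. The submitters' processing notes name RMA and Affymetrix Expression Console (1.4), and the values show a linear scale. No source used here names the genome build behind the deposited values, so RefSeq served for names and gene order and no coordinates are reported. Here, log2 was taken of the 35556 deposited intensities per array. Probe sets were named through the platform annotation: 21789 named 1 gene, 1621 several and 12146 were not listed. Symbols were updated through RefSeq (GRCm38.p6), which matched 21698. A gene was read from its probe set with the highest mean over 6 arrays, which gave 19938 genes. The third (33.3%) with the lowest means, at or below 6.00, was left out as dim, and 13292 were tested.

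Groups came from the sample titles. All genes were compared as targeted minus non-targeted with limma 3.58.1 in R 4.3.3 (lmFit, eBayes), two-sided, with Benjamini-Hochberg adjustment over the 13292 genes and a threshold of 0.05. Intervals and SEs are from that fit, which treats the arrays as independent and takes no account of mice shared between the populations. The procedure was also run on simulated data with planted changes. Those data had independent arrays, with no shared mice and no outlying array, so they do not show how it performs on these samples. Alternatives were the replicate number as a block, other filters, scalings and variance models, array weights, other probe set summaries, and leaving out each array.

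The 4 genes and the gene lists were chosen with earlier results of these data known. Named genes were up to 4 per list by smallest p, direct relatives of the 4, marker genes, the 4 most correlated genes for each, and the 2 on each side of 3-fold in each direction. Some outside these rules are named as picked afterwards or for a stated role.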

Additional observations from a re-analysis of the deposited data

How the results depend on the processing

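In none of the alternatives did the difference of Cpe, Fat3, Car3 or Slc26a7 change direction. These genes were chosen for that direction on the same arrays, and the block, the other filters and the variance models cannot move their differences. Leaving out each array in turn gave 1.39 to 2.00 for Cpe, 1.31 to 2.67 for Fat3, 1.11 to 2.21 for Car3 and -2.11 to -0.97 for Slc26a7, on the log2 scale. The values nearest to 0 came without targeted replicate 1. Other settings moved them little, except that Fat3 was 1.53 with array weights, 1.37 with the mean of its probe sets and 1.17 with their median. The median, and the fit on replicates 2 and 3 alone, were added after seeing the data. The count of genes past limma's threshold was 0 with all 6 arrays, no block and equal weights (634 at an unadjusted p under 0.05), and 0 without each array in turn. At an unadjusted p under 0.05 there were 1116 genes without targeted replicate 1, and 408 to 793 without any other array. The count past limma's threshold changed in 2 settings. It was 1, Dmp1, with array weights and 1, again Dmp1, with the replicate block. None of the 96 list genes passed in any setting. Same-numbered arrays did not deviate together over all genes tested (correlation of deviations -0.26, -0.12 and 0.07 for numbers 1, 2 and 3). The largest correlation was 0.325, between targeted replicate 1 and non-targeted replicate 2. By contrast, Car1 was closest between arrays of equal number, and the replicate 1 arrays of both populations lay at the same end for Cpe, Fat3, Car3 and Slc26a7. These values do not decide which arrays share a mouse, which the labels do not state. The main fit left the number out. It treats the 6 arrays as independent. Its SEs, intervals and p-values therefore ignore the sharing of mice between the populations, which 6 arrays from the stated 3 mice would require. The small list medians changed sign in some alternatives, in up to 5 of 17 for the SLC26 list, but in none for the Hippo list (-0.38 to -0.11). With 3 arrays per group and no detection calls, small differences of dim genes are beyond what these values can show.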
